A study of Homo sapiens with 6 samples.

Results

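The genes described here are 10 markers of the stem, glial and mesenchymal states of glioblastoma cells, SOX2, SOX4, SOX9, NES, VIM, CD44, CHI3L1, GFAP, OLIG2 and POU3F2. They were taken by symbol, and each matched 1 Ensembl gene id among the 60483 ids counted. Of the 10, 7 had enough reads to be tested among 14732 tested genes, and SOX2, GFAP and POU3F2 did not. The cells were T98G, an established human glioblastoma line, in 6 poly(A) RNA libraries with 2 per group. NT cells were untreated. shSRPK1 cells were transiently transfected with a pLKO.1 plasmid that carries a short hairpin against SRPK1, a kinase of splicing factors, and oeSRPK1 cells with full-length SRPK1 in pcDNA3.1. Every group grew in serum-containing medium, which all comparisons share. No library of cells given an empty or control plasmid was used here, so plasmid delivery and the SRPK1 construct cannot be told apart in the comparisons with NT.

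SOX2, OLIG2 and POU3F2 are transcription factors known to maintain the stem-like state of glioblastoma cells, and SOX4 is known to act upstream of SOX2 downstream of TGF-beta. SOX9 is a factor of glial progenitors, while NES (nestin), VIM (vimentin) and GFAP form intermediate filaments of neural stem cells, mesenchymal-like cells and astrocytes. CD44, the cell-surface receptor for hyaluronan, and CHI3L1, a secreted chitinase-like protein also called YKL-40, are standard markers of the mesenchymal subtype.

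Promoter windows are shown for 3 members that mark the range of the values below. CHI3L1 was the member with the largest fall, VIM the member with the highest level per kb of exon, and SOX2 the member with no reads. Each window is the 250 bases before the RefSeq start (GRCh38.p14), printed 5′ to 3′ on the strand of the gene, at chr1:203186705-203186954 (minus strand) for CHI3L1, chr10:17227991-17228240 (plus) for VIM and chr3:181711675-181711924 (plus) for SOX2. Of the 10 members, 7 had an entry in that table. Capitals mark matches, on either strand, to any of the motifs searched.
CHI3L1: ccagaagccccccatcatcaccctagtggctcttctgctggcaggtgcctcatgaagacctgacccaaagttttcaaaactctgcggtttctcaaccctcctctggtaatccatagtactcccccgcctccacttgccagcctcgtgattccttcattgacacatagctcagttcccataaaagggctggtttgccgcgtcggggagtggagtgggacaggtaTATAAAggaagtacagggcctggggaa
VIM: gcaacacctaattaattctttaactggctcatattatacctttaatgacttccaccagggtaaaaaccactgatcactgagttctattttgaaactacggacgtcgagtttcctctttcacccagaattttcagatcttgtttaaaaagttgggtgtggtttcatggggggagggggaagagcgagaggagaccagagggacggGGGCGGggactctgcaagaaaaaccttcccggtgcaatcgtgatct
SOX2: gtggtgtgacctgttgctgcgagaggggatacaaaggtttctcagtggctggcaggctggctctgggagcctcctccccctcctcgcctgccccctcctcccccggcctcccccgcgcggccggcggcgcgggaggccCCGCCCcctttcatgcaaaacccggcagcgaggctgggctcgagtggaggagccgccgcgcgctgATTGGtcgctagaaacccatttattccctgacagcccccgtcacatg
The CHI3L1 window held 1 TATA box (TATAAA), whose first base lay 27 bases before the start, a match present in 10.7% of 35116 windows of the same length. The VIM window held 1 GC box (GGGCGG), 46 bases before the start. The SOX2 window held 1 GC box, 112 bases before, and 1 CCAAT box (its name gives its letters), 47 bases before. GC boxes occurred in 42.6% and CCAAT boxes in 32.0% of all windows. The AP-1 motif TGANTCA, held by 6.57% of all windows, and the C/EBP motif TTGCNNAA, held by 9.05%, were also searched and gave 0 matches in these 3. No matches overlapped each other in these windows. The G and C share was 54.0% for CHI3L1, 46.0% for VIM and 68.8% for SOX2, with 6, 8 and 20 CpG pairs. These matches are letters in a window and no binding was measured.

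Libraries differed in size and in transcripts of another tissue. Gene reads ranged from 3891549 (oeSRPK1 2) to 22691215 (oeSRPK1 1), so 3 reads, used as a floor, stood for 0.771 and 0.132 CPM (the count scaled to library size) there. Normalised CPM below uses library sizes after TMM scaling, and a gene was called where its adjusted p over all tested genes was under 0.05. Replicates of shSRPK1 stood further apart (chi-square per gene 40.7) than those of NT (4.11) or oeSRPK1 (7.41). SRPK1 itself had 152.5 and 140.4 (NT), 113.1 and 140.1 (shSRPK1) and 190.3 and 168.0 (oeSRPK1) normalised CPM. Its difference from NT was not called in shSRPK1 or in oeSRPK1 (edgeR adjusted p = 0.360 and 0.175), and it was higher in oeSRPK1 than in shSRPK1 (0.50 ± 0.14, adjusted p = 0.0377), a call lost without NT 1 (0.0945), NT 2 (0.0939), oeSRPK1 1 (0.308) or oeSRPK1 2 (0.0997), when only both groups were fitted (0.0920) and with libraries thinned to the shallowest (0.0604). Transcripts of skeletal muscle were read in oeSRPK1 and, at a lower level, in shSRPK1 2. Over 20 markers, the sum was 69.3 and 71.4 (NT), 76.0 and 82.3 (shSRPK1) and 377 and 3410 (oeSRPK1) normalised CPM. The cardiac and slow-muscle myosin MYH7 had 0 and 0 (NT), 0 and 61 (shSRPK1) and 2399 and 4905 (oeSRPK1) reads. The part of that RNA in each member's level was not tested. Without oeSRPK1 2 the folds of oeSRPK1 over NT were 2.97 for SOX9, 0.205 for CHI3L1, 0.576 for SOX4 and 3.43 for OLIG2.

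The 10 members spanned the whole range of T98G transcript levels. Levels here are reads per kb of exon, scaled to the same sum in every library, so that genes can be compared. On this scale VIM had a mean of 1456 ± 137 (SD, n = 2) in NT and CD44 996.7 ± 37.9. Both lay above the 99th percentile of tested genes in every library (99.3 to 99.7). SOX9 followed at 86.4 ± 2.56, SOX4 at 25.5 ± 2.06 and CHI3L1 at 14.2 ± 3.81. OLIG2 at 1.11 ± 0.323 and NES at 0.614 ± 0.0156 were near the low end of tested genes, between percentiles 5.23 and 8.31 and between 3.43 and 3.45 in NT. In NT no replicate of one member reached the range of its neighbour in this order. The order was the same in oeSRPK1 except that OLIG2 (3.13 ± 1.06) and CHI3L1 (2.83 ± 0.278) changed places, and there their replicates overlapped. In shSRPK1, NES (1.18 ± 0.0379) and OLIG2 (1.11 ± 0.00966) were next to each other and their replicates did not overlap (1.15 to 1.20 and 1.10 to 1.12). These values rest on 25 and 19 reads for NES and 14 and 11 for OLIG2, and the order was not tested. In NT they rest on 9 and 13 reads for NES and 12 and 11 for OLIG2.

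**Figure D1:**
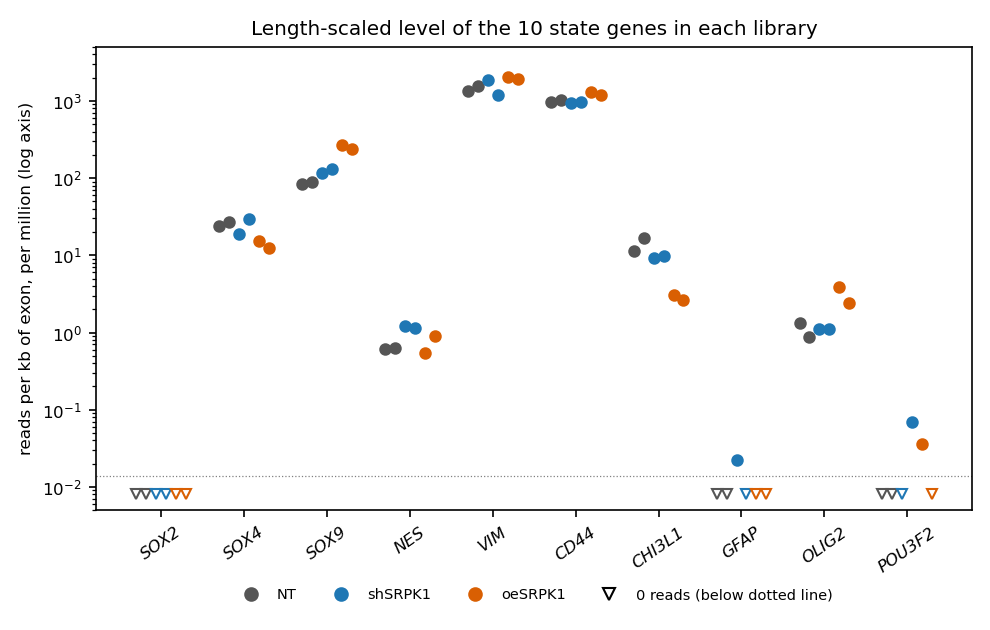
Reads per kb of exon, scaled to the same sum in every library (log axis), for the 10 genes in each of the 6 libraries, coloured by group, with open triangles for 0 reads. VIM and CD44 lie at the top in all libraries, and SOX2, GFAP and POU3F2 lie at 0 to 1 read.

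SOX2, the core pluripotency and neural stem factor, had 0 reads in all 6 libraries. It is a single-exon gene (ENSG00000181449.3, GRCh38 chromosome 3, 181711924 to 181714436, plus strand), and none of its exon overlaps another annotated exon. With 74551702 gene reads in all, 0 reads allow up to 0.0402 CPM over the libraries together, and between 0.132 and 0.771 CPM in single libraries. GFAP, the astrocyte filament (ENSG00000131095.10, chromosome 17, 44903161 to 44916937, minus strand), had 1 read, in shSRPK1 1. POU3F2, a neural POU factor also called BRN2 (ENSG00000184486.8, chromosome 6, 98834592 to 98839470, plus strand, 1 exon), had 1 read each in shSRPK1 2 and oeSRPK1 1. All 3 genes were at or under the floor of 3 reads in every library of every group, so no difference was detectable at this depth and no fold is given. Among astrocyte markers, GFAP, AQP4 and S100B were all at 0 or 1 read in these glioma cells. Of the 28 astrocyte genes described below, which include AQP4 and S100B, 17 had enough reads to be tested.

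SOX9 rose in both transfected groups, and further in oeSRPK1. It (ENSG00000125398.5, chromosome 17, 72121020 to 72126420, plus strand, 3 exons) had 86.8 and 91.7 (NT), 130.9 and 146.8 (shSRPK1) and 264.8 and 244.0 (oeSRPK1) normalised CPM, from 894, 1299, 1733, 1535, 5886 and 944 reads. The 3 groups did not overlap, and replicates of a group stayed within 1.12 times of each other. In bulk RNA such a difference cannot be told apart from a change in how many cells express the gene. SOX9 was 2.85 times the NT level in oeSRPK1 (95% interval 2.35 to 3.46, log2 fold change 1.51 ± 0.12 SE, edgeR adjusted p = 0.000454). In shSRPK1 it was 1.56 times the NT level (95% interval 1.29 to 1.88, 0.64 ± 0.12, edgeR adjusted p = 0.0210), and in oeSRPK1 1.83 times the shSRPK1 level (95% interval 1.52 to 2.22, 0.88 ± 0.12, edgeR adjusted p = 0.00373). The rise in oeSRPK1 over NT passed in all 16 alternatives, including that without oeSRPK1 2, and ranged from 2.67 to 2.97-fold. Leaving out any 1 of NT 1, NT 2, oeSRPK1 1 and oeSRPK1 2 ended the call in shSRPK1 (adjusted p = 0.281, 0.163, 0.0732 and 0.0742), as did fitting only those 2 groups (0.0736). The call of oeSRPK1 over shSRPK1 was lost without oeSRPK1 1 (0.0834).

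SOX4 fell in oeSRPK1 and was not called in shSRPK1 against NT. This SOXC factor of progenitor cells (ENSG00000124766.5, chromosome 6, 21592768 to 21598619, plus strand, 1 exon) had 36.6 and 41.6 (NT), 31.4 and 48.9 (shSRPK1) and 22.5 and 19.1 (oeSRPK1) normalised CPM. Both oeSRPK1 libraries lay below the other 4, while those of shSRPK1 lay on either side of NT. The oeSRPK1 to NT ratio was 0.542 (95% interval 0.382 to 0.769, -0.89 ± 0.22, edgeR adjusted p = 0.0269) and the oeSRPK1 to shSRPK1 ratio 0.530 (95% interval 0.373 to 0.752, -0.92 ± 0.22, edgeR adjusted p = 0.0233). Between shSRPK1 and NT the ratio was 1.02 (95% interval 0.733 to 1.43, edgeR adjusted p = 0.937). Leaving out NT 1 (adjusted p = 0.113), NT 2 (0.166), oeSRPK1 1 (0.158) or oeSRPK1 2 (0.141) ended the call against NT, with log2 fold changes between -1.07 and -0.80 over all alternatives. That from shSRPK1 was lost without the same 4 libraries (0.0531, 0.0553, 0.147 and 0.124) and when only both groups were fitted (0.0578).

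Of 17 other members of the SOX family, 6 were tested. SOX11, a SOXC factor like SOX4, rose in oeSRPK1, at 36.8 and 38.3 (NT), 28.9 and 48.0 (shSRPK1) and 98.3 and 91.0 (oeSRPK1) normalised CPM (1.34 ± 0.22 against NT, edgeR adjusted p = 0.00682, and 1.31 ± 0.22 against shSRPK1, adjusted p = 0.00744). SOX4 and SOX11 thus moved in opposite directions in oeSRPK1, and both calls rest on the same NT and oeSRPK1 libraries. SOX6, a SOXD factor, rose against NT (0.84 ± 0.19, edgeR adjusted p = 0.0182). Of all tested genes, 11.2% were called higher in oeSRPK1 against NT, 11.5% in oeSRPK1 against shSRPK1 and 5.43% in shSRPK1 against NT. In shSRPK1 against NT 0 of the 6 were called by edgeR, and 0 had an unadjusted p under 0.05. Over all 14732 tested genes, 4237 had an unadjusted p under 0.05 in that comparison. Of the 11 not tested, 6 had 0 reads in every library, SOX1 had 3 reads in all, and SOX3, SOX10 and SOX21 had none. In the leave-one-out fits between 0 and 2 of the 6 were called in oeSRPK1 against NT, with 0 without NT 1, NT 2 or oeSRPK1 1 and 1 without oeSRPK1 2.

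OLIG2, a basic helix-loop-helix factor of oligodendrocyte progenitors and proneural glioma cells (ENSG00000205927.4, chromosome 21, 33025845 to 33029196, plus strand), was called higher in oeSRPK1 on few reads. It had 12 and 11 (NT), 14 and 11 (shSRPK1) and 73 and 8 (oeSRPK1) reads. Those reads came to 1.17 and 0.777 (NT), 1.06 and 1.05 (shSRPK1) and 3.28 and 2.07 (oeSRPK1) normalised CPM. Both oeSRPK1 libraries lay above the other 4, and NT and shSRPK1 overlapped. The fold over NT was 3.005 (95% interval 1.61 to 5.61, 1.59 ± 0.39, edgeR adjusted p = 0.0262), and over shSRPK1 2.72 (95% interval 1.47 to 5.03, 1.44 ± 0.39, edgeR adjusted p = 0.0331). Leaving out any 1 of the same 4 libraries ended the call against NT (adjusted p = 0.123, 0.222, 0.367 and 0.0541 for NT 1, NT 2, oeSRPK1 1 and oeSRPK1 2), as did DESeq2 (0.0840). It was lost against shSRPK1 in 7 of 14 alternatives (adjusted p up to 0.407). Of 10 relatives of OLIG2 and POU3F2, only POU2F1 and POU6F1 were tested, and neither was called by edgeR in any comparison, with 0 at an unadjusted p under 0.05, though 1 was called in oeSRPK1 against shSRPK1 without shSRPK1 1. Over all 14732 tested genes, 4237 had an unadjusted p under 0.05 in shSRPK1 against NT. There were 5255 in oeSRPK1 against NT and 5597 in oeSRPK1 against shSRPK1. OLIG1, the neighbour and partner of OLIG2, had 1 read over the 6 libraries.

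NES, which encodes nestin, the filament protein used to mark neural stem cells (ENSG00000132688.10, chromosome 1, 156668763 to 156677397, minus strand, 4 exons), was barely read. It had 9 and 13 (NT), 25 and 19 (shSRPK1) and 17 and 5 (oeSRPK1) reads, or 0.874 and 0.918, 1.89 and 1.82, and 0.765 and 1.29 normalised CPM. Both shSRPK1 libraries lay above the other 4, but no comparison was called. The ratio to NT was 2.05 in shSRPK1 (95% interval 1.11 to 3.79, edgeR unadjusted p = 0.0270, adjusted p = 0.122) and 0.992 in oeSRPK1 (95% interval 0.513 to 1.92, adjusted p = 0.989). In oeSRPK1 2 the 5 reads are close to the floor.

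VIM and CD44, the most abundant members, were not called in any comparison with all libraries. VIM (ENSG00000026025.12, chromosome 10, 17228259 to 17237593, plus strand, 9 exons) had 1827 and 2117 (NT), 2759 and 1741 (shSRPK1) and 2702 and 2553 (oeSRPK1) normalised CPM. One shSRPK1 library lay above every oeSRPK1 library and the other below every NT library, a ratio of 1.58 between replicates. CD44 (ENSG00000026508.15, chromosome 11, 35138870 to 35232402, plus strand, 21 merged exons) had 2529 and 2705 (NT), 2645 and 2735 (shSRPK1) and 3336 and 3063 (oeSRPK1). Its oeSRPK1 libraries were above the other 4, and its NT and shSRPK1 libraries overlapped.

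The fold of oeSRPK1 over NT was 1.33 for VIM (95% interval 0.938 to 1.89, edgeR adjusted p = 0.217) and 1.22 for CD44 (95% interval 0.977 to 1.53, adjusted p = 0.181), and neither was called. In shSRPK1 over NT the folds were 1.14 (95% interval 0.804 to 1.62, adjusted p = 0.608) and 1.03 (95% interval 0.821 to 1.29, adjusted p = 0.879). In oeSRPK1 over shSRPK1 they were 1.17 (95% interval 0.822 to 1.66, adjusted p = 0.487) and 1.19 (95% interval 0.950 to 1.49, adjusted p = 0.228). The oeSRPK1 folds over NT were called for both genes without shSRPK1 1 (adjusted p = 0.00331 for VIM and 0.0315 for CD44), without shSRPK1 2 (0.00359 and 0.0350), when only those 2 groups were fitted (0.00381 and 0.0286), and under limma-voom where each group had its own variance (0.0208 and 0.0305). VIM was also called higher in shSRPK1 than NT without shSRPK1 2 (0.49, adjusted p = 0.00308) and in oeSRPK1 than shSRPK1 without shSRPK1 1 (0.56, adjusted p = 0.00119). Exons of the antisense gene VIM-AS1 and of 1 other antisense gene cover 24.4% of the VIM exons. VIM-AS1 had 17 to 91 reads per library, and no strand setting is given for the counting. Entries set aside as ambiguous made up 3.04% to 3.37% of all entries per library. The part of antisense reads in the VIM counts, or of VIM reads set aside as ambiguous, was not tested. CD44 is known for alternative exons, which gene counts do not resolve.

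CHI3L1 had the largest change of the 10 and fell in oeSRPK1. It (ENSG00000133048.11, chromosome 1, 203178931 to 203186749, minus strand, 8 exons) had 10.2 and 15.2 (NT), 8.99 and 9.47 (shSRPK1) and 2.61 and 2.33 (oeSRPK1) normalised CPM, from 105, 215, 119, 99, 58 and 9 reads. The oeSRPK1 libraries lay far below the other 4, and both shSRPK1 libraries lay below both of NT. The oeSRPK1 to NT ratio was 0.199 (95% interval 0.131 to 0.305, -2.33 ± 0.27, edgeR adjusted p = 0.00171), or 5.02-fold lower. The oeSRPK1 to shSRPK1 ratio was 0.276 (95% interval 0.180 to 0.424, -1.86 ± 0.27, edgeR adjusted p = 0.00446), while shSRPK1 stood at 0.723 times NT and was not called (95% interval 0.505 to 1.03, adjusted p = 0.209). Both oeSRPK1 calls passed in 15 of 16 alternatives, that without oeSRPK1 2 included, and were lost without oeSRPK1 1 (adjusted p = 0.0587 against NT and 0.0986 against shSRPK1), when the 9 reads of oeSRPK1 2 stood alone.

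**Figure D2:**
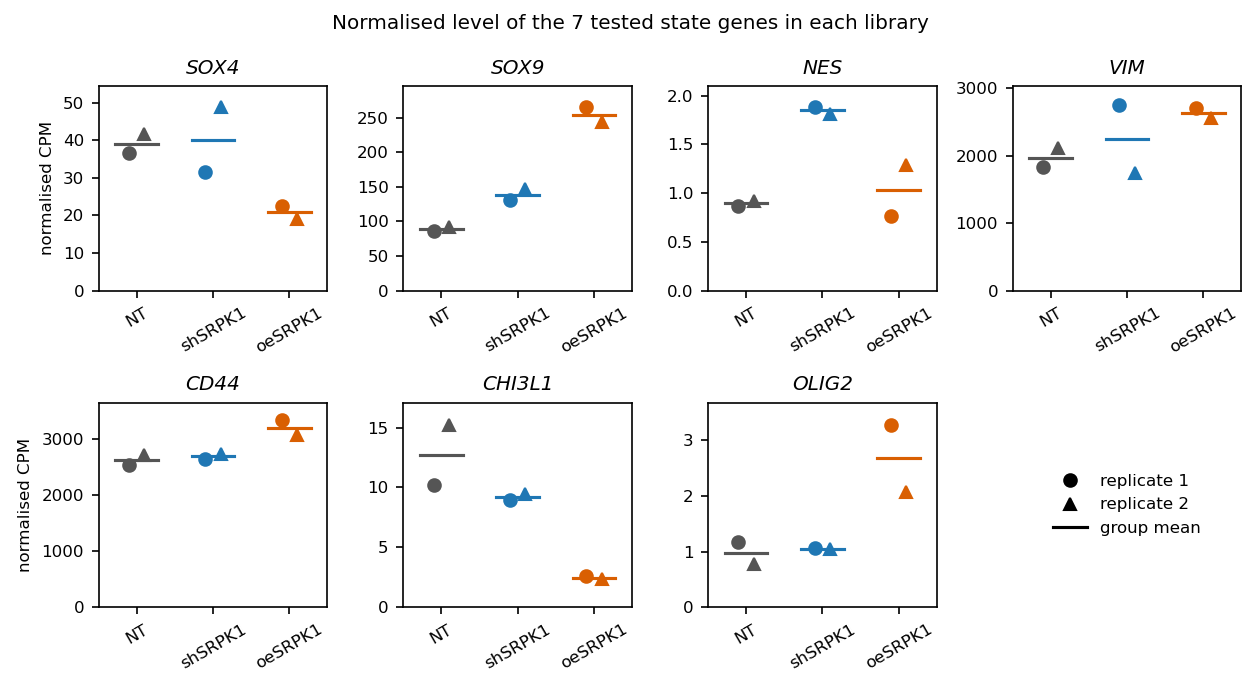
Normalised CPM (linear axes from 0) of the 7 tested genes in each library, with circles and triangles for replicates 1 and 2 and a line for the mean of each group. SOX9 steps up from NT to shSRPK1 to oeSRPK1, CHI3L1 and SOX4 are lowest in both oeSRPK1 libraries, and the 2 shSRPK1 values of VIM lie apart.

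Counted together, 1 of the 7 tested members was called in shSRPK1 against NT (SOX9, higher), where 9.18% of all tested genes were called. In oeSRPK1 against NT 4 of 7 were called, SOX9 and OLIG2 higher and SOX4 and CHI3L1 lower, where 20.6% of all tested genes were called. The same 4 genes were called in the same directions in oeSRPK1 against shSRPK1, where the share over all tested genes was 22.8%. These last 2 comparisons share the oeSRPK1 libraries. Groups did not overlap for 3 of the 7 in shSRPK1 against NT (57.5% of all tested genes), 2 higher (28.8%) and 1 lower (28.7%). In oeSRPK1 against NT they did not overlap for 6 (70.5%), 4 higher (35.9%) and 2 lower (34.6%). In oeSRPK1 against shSRPK1 they did not overlap for 6 (62.3%), 3 higher (31.8%) and 3 lower (30.5%). The median log2 fold change of the 7 was 0.15, 0.29 and 0.22 in the 3 comparisons, beside 0.01, 0.00 and 0.00 over all tested genes. The members did not share a direction. Within the mesenchymal markers CHI3L1 fell while VIM (0.41 ± 0.22) and CD44 (0.29 ± 0.14) were not called, and within the SOX factors SOX9 rose while SOX4 fell.

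**Figure D3:**
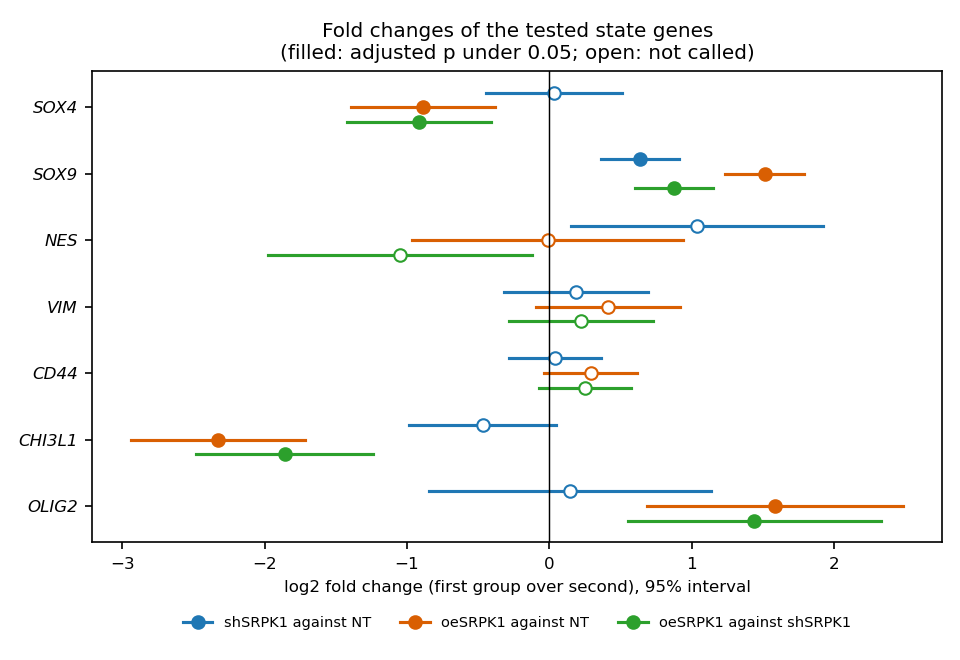
Log2 fold change of the 7 tested genes in the 3 comparisons, with 95% intervals derived from the edgeR test, filled where the adjusted p is under 0.05 and open otherwise. SOX9 is filled in all 3 comparisons, and SOX4, CHI3L1 and OLIG2 in the 2 that involve oeSRPK1.

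Among 42 other genes of the mesenchymal state, all were tested and most called ones rose in both transfected groups. In oeSRPK1 against NT 17 rose and 2 fell (median 0.55), against 11.2% and 9.45% of all tested genes called higher and lower. TNC, the matrix protein tenascin-C (2.17 ± 0.19), ICAM1, an adhesion receptor (1.91 ± 0.19), and S100A11 (1.22 ± 0.14) had edgeR adjusted p = 0.000682, 0.000976 and 0.00169. The 2 that fell were TNFRSF1A, the main receptor for TNF (-0.83 ± 0.13), and NNMT (-0.95 ± 0.21, edgeR adjusted p = 0.0193). In shSRPK1 against NT 13 rose and 2 fell (median 0.41), against 5.43% and 3.75%, with the complement proteases C1R (1.34 ± 0.15) and C1S (0.89 ± 0.14), TNC (1.16 ± 0.19) and TIMP1 (0.86 ± 0.17) at edgeR adjusted p = 0.00441, 0.0118, 0.0149 and 0.0231. PLAU, the urokinase gene, fell in shSRPK1 (-1.04 ± 0.25, edgeR adjusted p = 0.0448) and rose in oeSRPK1 (1.73 ± 0.26, adjusted p = 0.00526). It stood 2.77 ± 0.27 higher in oeSRPK1 than in shSRPK1 (adjusted p = 0.00176), where 10 of the 42 were called higher and 6 lower, against 11.5% and 11.3% of all tested genes. Left-out libraries moved these counts: 4 to 26 rose in oeSRPK1 against NT (4 without NT 1, 8 without NT 2, 5 without oeSRPK1 1, 11 without oeSRPK1 2 and 26 without either shSRPK1 library), and in shSRPK1 against NT 0 without NT 1 or NT 2, 3 without oeSRPK1 1 or oeSRPK1 2, 20 without shSRPK1 1 and 23 without shSRPK1 2. In oeSRPK1 against shSRPK1, 2 rose without oeSRPK1 1, 5 without oeSRPK1 2 and 20 without shSRPK1 1. Over all tested genes, called counts in every comparison also fell with an NT or oeSRPK1 library left out. They rose with a shSRPK1 library left out. The leave-one-out counts of this and the other lists are to be read beside that. The genes of this list called lower moved as well. Those lower in oeSRPK1 than NT numbered 0 without NT 1, NT 2 or oeSRPK1 1, 1 without oeSRPK1 2 and 6 without either shSRPK1 library. Those lower in shSRPK1 than NT numbered 0 without any 1 of the NT and oeSRPK1 libraries, 6 without shSRPK1 1 and 10 without shSRPK1 2. Between oeSRPK1 and shSRPK1 1 fell without NT 1, NT 2 or oeSRPK1 2, 0 without oeSRPK1 1, 14 without shSRPK1 1 and 11 without shSRPK1 2.

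Of 14 transcription regulators known to drive the mesenchymal state, STAT3 and CEBPB, the best known, were not called in any of the 3 comparisons (0.08 ± 0.13 and 0.38 ± 0.17 in oeSRPK1 against NT, edgeR adjusted p = 0.707 and 0.147). RUNX1 rose in oeSRPK1, from 67.9 and 68.8 normalised CPM in NT to 178.0 and 139.1, against 59.1 and 58.5 in shSRPK1 (1.22 ± 0.14 over NT, edgeR adjusted p = 0.00163). CEBPD, the relative of CEBPB, fell from 32.2 and 36.6 to 14.1 and 16.0, against 38.1 and 40.9 in shSRPK1 (-1.22 ± 0.14, edgeR adjusted p = 0.00195). BHLHE40, a hypoxia-responsive repressor, rose in shSRPK1, from 28.6 and 32.3 to 231.7 and 125.5 (2.55 ± 0.28, edgeR adjusted p = 0.00753). In all 4 rose and 1 fell in oeSRPK1 against NT (11.2% and 9.45% of all tested genes), 3 rose and 0 fell in shSRPK1 against NT (5.43% and 3.75%), and 2 rose and 2 fell in oeSRPK1 against shSRPK1 (11.5% and 11.3%). With single libraries left out, 1 to 10, 0 to 6 and 1 to 9 were called higher in these comparisons. Without NT 1 or NT 2 these counts were 1, 0 and 1, and without oeSRPK1 1 they were 1, 1 and 1. Without oeSRPK1 2 they were 2, 1 and 1, without shSRPK1 1 they were 10, 6 and 3, and without shSRPK1 2 they were 10, 4 and 9. Those called lower were 0, 0 and 0 without oeSRPK1 1, 1, 1 and 3 without shSRPK1 1, and 1, 3 and 3 without shSRPK1 2.

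Of 37 other neural stem and progenitor genes 25 were tested. HMGA2, a chromatin protein of fetal and tumour cells, rose in oeSRPK1 (1.80 ± 0.22, edgeR adjusted p = 0.00226) and in shSRPK1 (0.88 ± 0.22, adjusted p = 0.0452). ID2, an inhibitor of helix-loop-helix factors, fell in oeSRPK1 from 32.0 and 32.3 normalised CPM to 14.9 and 14.7 (-1.11 ± 0.14, edgeR adjusted p = 0.00238), and NOTCH2 rose (0.82 ± 0.14, adjusted p = 0.00701). ID1 (0.84 ± 0.15) and EZH2, a histone methyltransferase (0.61 ± 0.13), rose in shSRPK1 with edgeR adjusted p = 0.0187 and 0.0277. Set against shSRPK1, oeSRPK1 had less ID1 (-1.33 ± 0.15, edgeR adjusted p = 0.00245). The counts were 4 higher and 0 lower in shSRPK1 against NT (5.43% and 3.75% of all tested genes). They were 3 and 3 of 25 in oeSRPK1 against NT, near the shares over all tested genes (11.2% and 9.45%), and in oeSRPK1 against shSRPK1 7 and 6 (11.5% and 11.3%). SOX11, described above with the SOX family, is also on this list and among those called higher in both oeSRPK1 comparisons. Of the 12 not tested, 6 had 0 reads in every library, among them FABP7, and PROM1, which encodes the stem cell marker CD133, had at most 3 reads per library. In shSRPK1 against NT 0 were called without NT 1 or NT 2, 1 without either oeSRPK1 library, 9 without shSRPK1 1 and 11 without shSRPK1 2. In oeSRPK1 against NT 2 were called without NT 1 or NT 2, 1 without oeSRPK1 1 and 13 without either shSRPK1 library. In oeSRPK1 against shSRPK1 8 were called without NT 1, 7 without NT 2, 1 without oeSRPK1 1 and 5 without oeSRPK1 2.

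Of 28 astrocyte genes 17 were tested, and AQP4, S100B and HEPACAM had 0 reads in all 6 libraries. In oeSRPK1 against NT 0 rose and 4 fell: FGFR3 (-2.28 ± 0.32), GLUL, the glutamine synthetase gene (-0.90 ± 0.17), the glutamate transporter gene SLC1A3 (-1.34 ± 0.36) and APOE (-1.41 ± 0.39), with edgeR adjusted p = 0.00365, 0.0114, 0.0339 and 0.0390. Of all tested genes, 11.2% were called higher and 9.45% lower in that comparison. FGFR3 was also the 1 gene called in shSRPK1 against NT (-1.15 ± 0.28, edgeR adjusted p = 0.0425), where these shares were 5.43% and 3.75%. In oeSRPK1 against shSRPK1 NFIX was called higher, and GLUL and FGFR3 lower (11.5% and 11.3% of all tested genes). CRYAB, on this list and abundant in muscle, had 1.07 and 1.13 (NT), 0.302 and 1.72 (shSRPK1) and 18.8 and 203.4 (oeSRPK1) normalised CPM, the order of the muscle marker sums in oeSRPK1. It was named after its values were seen. Of 25 proneural and oligodendrocyte genes 7 were tested, with SOX6 higher and PDGFRA, the growth factor receptor of progenitors, lower in oeSRPK1 (-1.46 ± 0.34, edgeR adjusted p = 0.0218). In shSRPK1 against NT 0 of these 7 were called by edgeR and 3 had an unadjusted p under 0.05. Over all 14732 tested genes, 4237 had an unadjusted p under 0.05 there. TCF4 was the 1 gene called in oeSRPK1 against shSRPK1 (-0.42 ± 0.13, edgeR adjusted p = 0.0468). The shares over all tested genes given above for each comparison also stand beside these 7. The 4 astrocyte genes lower in oeSRPK1 than NT became 0 without NT 1, 1 without NT 2, 0 without oeSRPK1 1 and 1 without oeSRPK1 2. The genes called higher, 0 with all libraries, became 3 without oeSRPK1 1, 2 without oeSRPK1 2, 2 without shSRPK1 1 and 3 without shSRPK1 2. In the other comparisons, 0 astrocyte genes were called in shSRPK1 against NT without any 1 of the NT and oeSRPK1 libraries, 3 without shSRPK1 1 and 7 without shSRPK1 2. In oeSRPK1 against shSRPK1 1 was called without NT 1 or NT 2 and 6 and 5 without shSRPK1 1 and 2. Of the proneural genes, 0 were called in oeSRPK1 against NT without any 1 of the NT and oeSRPK1 libraries.

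Partners of the members were read as follows. Of 15 tested genes of hyaluronan turnover and CD44 binding, 5 rose and 3 fell in oeSRPK1 against NT (11.2% and 9.45% of all tested genes). The hyaluronidase CEMIP2 rose from 71.7 and 71.1 normalised CPM to 209.2 and 177.3, against 76.0 and 77.8 in shSRPK1 (1.44 ± 0.12, edgeR adjusted p = 0.000534), and EZR, which encodes ezrin, a linker of CD44 to actin, rose by 0.97 ± 0.16 (adjusted p = 0.00667). VCAN, which encodes the hyaluronan-binding proteoglycan versican, fell (-0.67 ± 0.16, edgeR adjusted p = 0.0239). In shSRPK1 against NT HYAL3 rose and RDX fell (0.81 ± 0.20 and -0.48 ± 0.11, edgeR adjusted p = 0.0426 and 0.0390), where 5.43% and 3.75% of all tested genes were called. In oeSRPK1 against shSRPK1 3 rose and 3 fell (11.5% and 11.3%). HAS1, a hyaluronan synthase, had 0 reads, and HAS2 and HAS3 had at most 17 reads per library.

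Of 5 tested relatives and receptors of CHI3L1, OVGP1 fell in oeSRPK1 against NT from 16 and 15 reads to 9 and 1 (-1.75 ± 0.48, edgeR adjusted p = 0.0389), and it and CHID1 (-0.63 ± 0.11, adjusted p = 0.00766) were lower than in shSRPK1. Of all tested genes, 9.45% were called lower in oeSRPK1 against NT and 11.3% in oeSRPK1 against shSRPK1. In shSRPK1 against NT 0 of the 5 were called by edgeR and 1 had an unadjusted p under 0.05, beside 4237 of all 14732 tested genes. IL13RA2, a receptor of CHI3L1, had at most 3 reads per library, while the co-receptor gene TMEM219 had 72.0 and 77.5 normalised CPM in NT and was not called in any comparison. Of 10 tested intermediate filaments and linkers, SYNM, which encodes synemin, a partner of vimentin, fell in oeSRPK1 (-1.66 ± 0.21, edgeR adjusted p = 0.00261) and LMNB1 fell (-1.15 ± 0.31, adjusted p = 0.0452). PRPH, which encodes peripherin, rose in oeSRPK1 from 11 and 14 reads to 66 and 13 (1.59 ± 0.33, adjusted p = 0.0155), and in oeSRPK1 against shSRPK1 the same 3 genes were called in the same directions. BFSP1 was the 1 filament gene called in shSRPK1 against NT (-0.99 ± 0.21, edgeR adjusted p = 0.0285), where 3.75% of all tested genes were called lower. The shares called higher and lower were 11.2% and 9.45% in oeSRPK1 against NT, and 11.5% and 11.3% in oeSRPK1 against shSRPK1. The neurofilament genes NEFL, NEFM and NEFH had 0 reads in every library. DES, the muscle filament desmin, had 2 and 7 (NT), 2 and 4 (shSRPK1) and 95 and 186 (oeSRPK1) reads, and was named after its values were seen. Called counts of the CD44 list fell to 1 without NT 1, NT 2 or oeSRPK1 1 and to 3 without oeSRPK1 2 in oeSRPK1 against NT, and those of the CHI3L1 list to 0 without any of these 4 and up to 4 without either shSRPK1 library. Those of the filament list fell with an NT or oeSRPK1 library left out and rose with a shSRPK1 library left out. Counts over all tested genes moved in the same directions. Called genes of the CD44 and filament lists in shSRPK1 against NT numbered 0 and 0 without any 1 of the NT and oeSRPK1 libraries, 3 and 2 without shSRPK1 1, and 5 and 5 without shSRPK1 2. The CD44 list had 3 called in oeSRPK1 against shSRPK1 without NT 1 or NT 2, 1 without oeSRPK1 1 and 2 without oeSRPK1 2, and 9 without shSRPK1 1. The filament list had 1 called without either oeSRPK1 library and 6 without either shSRPK1 library, and the CHI3L1 list 1 without NT 1 or NT 2 and 0 without either oeSRPK1 library.

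**Figure D4:**
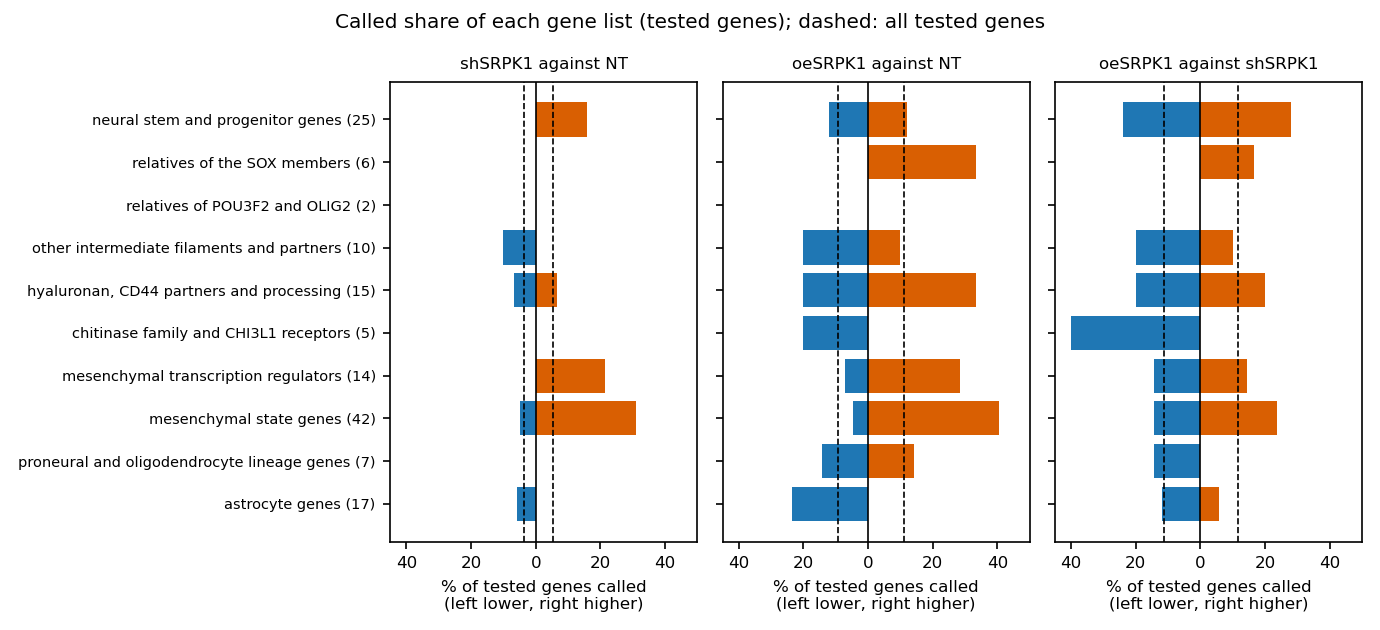
Share of the tested genes of each list called higher (right) or lower (left) in each comparison, with the number tested in brackets after each name and dashed lines at the share over all tested genes. In oeSRPK1 against NT, 17 of 42 mesenchymal state genes are on the right, and 4 of 17 astrocyte genes on the left.

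For each called member the 3 nearest profiles were sought among 12440 tested genes, by the root mean square difference of log2 CPM over the 6 libraries after centring. Nearest to SOX9 were RHOB (0.026), EHD4 (0.052) and UBE2L6 (0.094). Nearest to SOX4 were SNHG3 (0.071), SHPRH (0.077) and NCK1-DT (0.081). CHI3L1 had EGR1 (0.185), EEPD1 (0.215) and RHBDL3 (0.222) nearest, and OLIG2 had SLC20A1 (0.185), CEMIP2 (0.190) and ITPRIP (0.191). Among the members themselves VIM and CD44 were closest (0.216), then SOX9 and OLIG2 (0.310), and CHI3L1 and OLIG2 were farthest apart (1.61). With 6 libraries in 3 groups many genes share such a profile, and these distances are a description.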

How the data were processed

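Per the labels' protocols, cells were transfected with a lipid reagent and poly(A) RNA was sequenced as paired reads. Per the submitters' processing notes, the authors used FastQC, Trimmomatic and STAR 2.5.3 with hg38. The deposited values are raw read counts per gene, 1 table per library. The counting tool, annotation release and strand setting are not given in the sources used here, so reads of overlapping genes cannot be separated. Entries that name no gene (23.5% to 26.7% of all) were left out.

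Ids were named through a gene names table (41163) or GENCODE 29 (15635), which also gave positions and exon lengths (GRCh38). In R 4.3.3, edgeR 4.0.16 kept genes by filterByExpr (minimum count 10, total 15), scaled by TMM and fitted glmQLFit (robust) and glmQLFTest to all 6 libraries with a biological coefficient of variation of 14.5%. Calls needed a Benjamini-Hochberg adjusted p under 0.05 over all tested genes. Normalised CPM was computed on TMM library sizes. A prior count of 2 was used for log2 CPM. With 2 libraries per group, p-values measure the spread between these libraries, which the series text calls biological replicates without naming separate cultures. No molecular identifiers are described, so floors cover counting error only. Fits were tested on simulated data in which all groups had the same spread between replicates. The groups here differ in spread, which that simulation did not cover.

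Named genes were all members, up to 4 per list with the smallest adjusted p, and the 3 nearest profiles. Some were left out for length or are not reported here, and exceptions are marked. Members and lists were chosen with earlier results of these data known. The lists share some genes, such as SOX11 and SOX6, so their counts are not independent. Alternatives were DESeq2 (1.42.0) and its size factors, upper-quartile scaling, no filter, one at a CPM of 5 in 2 libraries, limma-voom (limma 3.58.1), only the libraries compared, a replicate block, thinning, and each library left out, where the remaining library of a group was given the variance of the others. A limma-voom fit with a variance for each group was added after seeing the data.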

Additional observations from a re-analysis of the deposited data

How the results depend on the processing

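Depth and 2 libraries per group limit NES and OLIG2, at 5 to 25 and 8 to 73 reads per library. Of 371 refits of the tested members and SRPK1, 308 kept direction and side of the threshold, 36 lost a call, 15 gained one and 12 changed sign. In fits over all 6 libraries with other scaling, filter, tool or depth, SOX9, CHI3L1 and SOX4 kept their calls in oeSRPK1 against NT. OLIG2 lost its call there under DESeq2 (adjusted p = 0.0840). Fitting only the libraries compared gave 0 members and 129 genes called in shSRPK1 against NT (1 and 1352 in the main setting), 6331 genes in oeSRPK1 against NT (3036), and 2 members and 1505 genes in oeSRPK1 against shSRPK1 (4 and 3361). No filter gave 2616 genes in shSRPK1 against NT, and limma-voom with a variance for each group 6226 in oeSRPK1 against NT. The causes were not tested.

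With each library left out in turn, 0 to 2 members and 29 to 4595 genes were called in shSRPK1 against NT, 1 to 6 and 293 to 6415 in oeSRPK1 against NT, and 0 to 5 and 144 to 6152 in oeSRPK1 against shSRPK1. The lowest of these counts of genes came without NT 1 (29), oeSRPK1 1 (293) and oeSRPK1 1 (144), the highest without shSRPK1 2 in each. None of the values that changed sign was called with all libraries. SOX4 in shSRPK1 against NT was -0.012 in limma-voom, -0.015 with a variance for each group, -0.057 without NT 1 and -0.317 without shSRPK1 2, and ranged from -0.317 to 0.319 with libraries left out. In the same comparison CD44 was -0.011 without NT 1 (range to 0.085), OLIG2 -0.146 without NT 2 (range to 0.434) and VIM -0.178 without shSRPK1 1 (range to 0.487). NES in oeSRPK1 against NT was 0.049 in DESeq2, 0.026 with the replicate block, 0.049 without NT 2 and 0.487 without oeSRPK1 1 (range from -0.229), and VIM in oeSRPK1 against shSRPK1 was -0.113 without shSRPK1 2 (range to 0.558). OLIG2 and NES fell under the stricter filter and the thinning, which gave them no value.

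The replicate numbers were used as a block in 1 fit, which called 1, 4 and 4 members and 1006, 2639 and 2846 genes and ended no call of a member, though that of SRPK1 in oeSRPK1 against shSRPK1 was lost with the block (adjusted p = 0.0609). Deviations of libraries with the same number correlated at 0.01, -0.02 and 0.02 in the 3 comparisons, so the numbers were not taken to pair the samples.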

Other observations

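Markers of cell types other than glia were summed in each library. The sum of 13 neuronal genes was 67.2 and 63.9 (NT), 50.6 and 100 (shSRPK1) and 39.9 and 38.3 (oeSRPK1) normalised CPM. Of these genes 5 were tested. SNAP25, a synaptic vesicle fusion protein, had 147 and 211 (NT), 217 and 180 (shSRPK1) and 109 and 19 (oeSRPK1) reads, and fell in oeSRPK1 against NT (-1.57 ± 0.17, edgeR adjusted p = 0.00149). SYT1 stood higher in oeSRPK1 when set against shSRPK1 (2.24 ± 0.39, edgeR adjusted p = 0.00824), where SNAP25 was lower (-1.77 ± 0.17, edgeR adjusted p = 0.00153). Of all tested genes, 9.45% were called lower in oeSRPK1 against NT. In oeSRPK1 against shSRPK1 11.5% were called higher and 11.3% lower. MAP2 was the neuronal gene with most reads (103 to 791 per library). DCX and NEUROD2 had 0 reads in every library.

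Summed normalised CPM of 9 microglia and macrophage genes ranged from 3.30 to 3.53 in NT, 2.64 to 4.69 in shSRPK1 and 7.24 to 8.79 in oeSRPK1. PTPRC and TYROBP had 0 reads, and ITGAM was the 1 tested gene. ITGAM gave 139 of the 161 and 31 of the 34 summed reads in oeSRPK1 1 and 2. It was not called in oeSRPK1 against NT (edgeR adjusted p = 0.0786). Against shSRPK1 it was called higher (edgeR adjusted p = 0.0407), where 11.5% of all tested genes were called higher. Of 7 endothelial genes the sum was 1.34 to 1.55, 1.34 to 2.34 and 2.33 to 2.88, with CLDN5 at 0 reads and TIE1 the 1 tested gene. Of 8 epithelial genes it was 1.26 to 1.48, 1.36 to 1.82 and 2.59 to 3.60, and ELF3, an epithelial ETS factor, rose in oeSRPK1 against NT on 3 and 7 reads in NT and 41 and 7 in oeSRPK1 (edgeR adjusted p = 0.0161). Of the 20 muscle genes 13 were tested. TNNT1 and ACTA1 were called higher in oeSRPK1 against NT, where 11.2% of all tested genes were called higher. Of the 13, 11 had an edgeR unadjusted p under 0.05, as did 5255 of all 14732 tested genes. TNNT1 made up most of the muscle sum in NT and shSRPK1 (687 to 982 reads per library). Without it the other 19 came to 1.55 and 2.05 (NT), 2.04 and 16.6 (shSRPK1) and 269 and 3290 (oeSRPK1) normalised CPM. In shSRPK1 2 MYH7 had 61 and ACTA1 37 reads, and in shSRPK1 1 they had 0 and 1.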
